A study of Mus musculus with 16 samples.

Results

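The interleukin-1 (IL-1) family was followed here through its 3′-UTRs in a CPEB4 RNA-immunoprecipitation and sequencing (RIP-seq) experiment on mouse bone marrow-derived macrophages (BMDMs). The members were 9 genes chosen by symbol, namely the receptor antagonist Il1rn, the agonists Il1a, Il1b and Il18, the receptor chains Il1r1, Il1rap and Il1rl1, the decoy receptor Il1r2 and the binding protein Il18bp. Of these, 8 genes had rows in the tables, with 18 distinct regions among 30622 rows that carry the symbols of 14925 genes. Il1r2 was not analysed here, since no row used here carried its symbol. Several regions of a gene usually overlap, so the region with the most reads over the 8 libraries stands for the gene below and the others are given apart.

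The wild-type (WT) macrophages bear the number 76 and the CPEB4 knockout (KO) macrophages the number 73, and each genotype was taken untreated and after 9 h of LPS at 10 ng/ml. LPS is a bacterial cell wall component that activates macrophages. Both cultures were labelled as mice of strain C57BL/6J 129, and according to the methods the KO cells came from mice that lack Cpeb4 in all tissues and the macrophages were grown from marrow of adult mice in medium that L cells had conditioned, which supplies M-CSF. RNA that came down with an anti-CPEB4 antibody (RIP) and RNA of the lysate (Input, depleted of ribosomal RNA) were sequenced, and the 16 samples are 8 libraries run on lanes 7 and 8, which are summed in the tables. There was thus 1 library for each genotype, treatment and assay, and no spread between replicates can be given. Every interval below is a 95% interval that covers counting error only, and differences between genotypes cannot be told apart from differences between these cultures.

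IL-1α and IL-1β signal through the receptor chain encoded by Il1r1 together with the accessory chain encoded by Il1rap. The antagonist encoded by Il1rn occupies the same receptor without triggering a signal, and the decoy encoded by Il1r2 captures agonist. IL-18 is a related cytokine that is neutralised by the protein encoded by Il18bp, and Il1rl1 encodes ST2, the receptor of IL-33. In macrophages LPS is a strong inducer of both agonists and antagonist, and the stability of such mRNAs is set in part by elements of the 3′-UTR. CPEB4 recognises cytoplasmic polyadenylation elements (CPEs), whereas AU-rich elements (AREs) built from the pentamer ATTTA recruit factors such as tristetraprolin that promote decay.

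The copies of ATTTA in the 3′-UTRs separated the antagonist from the agonists Il1a and Il1b. The longest and most-read Il1rn region (chr2:24349631-24351494, + strand, 1864 bases, build mm10) held 7 CPE motifs and 0 copies of ATTTA. Of 3413 regions of like length, in which the shorter was at least 0.8 times the longer, 93.8% held at least 1 CPE motif, 35.7% held as many or more, and 89.0% held at least 1 ATTTA. The Il1a region (chr2:129299610-129300710, - strand, 1101 bases) held 4 CPE motifs and 3 copies of ATTTA, and the Il1b region (chr2:129364570-129365028, - strand, 459 bases) held 1 CPE motif and 4 copies of ATTTA. As many copies of ATTTA as in Il1b were found in 2.72% of 2983 regions of like length, and as many as in Il1a in 30.04% of 3648. As many CPE motifs as in Il1b were found in 59.3% of its regions of like length, and as many as in Il1a in 38.0%. Per kb, Il1rn held 3.76 CPE motifs, Il1a 3.63 and Il1b 2.18, so over these lengths CPE motifs did not set Il1rn apart from Il1a. The 1306-base region of Il1rn, which took most of its reads, held the same 7 CPE motifs, or 5.36 per kb. Of its 3640 regions of like length, 19.6% held as many or more, so the comparison with Il1a depends on the length taken. The strings counted on the sense strand of GRCm38.p6, which is the mm10 assembly, were TTTTAT, with TTTTAAT, with TTTTAAAT, with TTTTACT, with TTTTCAT, with TTTTAAGT and with TTTTGT, for CPEs, the pentamer ATTTA for AREs, and the hexamers AATAAA or else ATTAAA for polyadenylation signals, with overlapping copies counted apart. A match is a string in the sequence and not a measured binding site.

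The windows below show, in capitals, the 4 CPE motifs of Il1rn other than TTTTGT, all CPE motifs of Il1a and the single one of Il1b. The densest 30-base stretch of ATTTA in Il1a and in Il1b follows.
Il1rn CPE at chr2:24350029-24350056: cccttaccctgTTTTATaaacctgtgcc
Il1rn CPE at chr2:24350062-24350089: atggagaaggTTTTAATtctccttgtta
Il1rn CPE at chr2:24350214-24350241: tctcatagttaTTTTATtaggccagcct
Il1rn CPE at chr2:24350609-24350636: ttgaccattcaTTTTATcacttctaacc
Il1a CPE at chr2:129300458-129300485: gtactaatcaTTTTAATtactattctgc
Il1a CPE at chr2:129300207-129300234: cctcagtgggTTTTACTccagtgagatc
Il1a CPE at chr2:129300130-129300157: tgaatgttatTTTTAAGTtattttatct
Il1a CPE at chr2:129300121-129300148: tttttaagttaTTTTATctatgtattta
Il1b CPE at chr2:129364629-129364656: tggatgagactTTTTATgaatgaagcac
Il1a ARE at chr2:129300102-129300131: ctatgtATTTAtaaatatATTTAtgataat
Il1b ARE at chr2:129364801-129364830: ttacctATTTATTTAtgtATTTAttgattg

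The other 3 CPE motifs of Il1rn were TTTTGT. In Il1a the CPE motif nearest the end lay 522 bases before it and the first ATTTA 511 bases before it, so that the 2 kinds of element adjoin each other. In Il1b the single CPE motif lay 36 bases upstream of the AATAAA that is 28 bases before the end of the region, downstream of all 4 copies of ATTTA. In Il1rn the CPE motif nearest a signal lay 291 bases upstream of the first AATAAA, which is 572 bases before the end. Among the remaining members, Il18 (chr9:50581715-50581837, + strand, 123 bases) held 0 CPE motifs and 1 ATTTA, Il18bp (chr7:102015079-102015745, - strand, 667 bases) held 2 and 1, and the main Il1rap region (chr16:26715069-26717744, + strand, 2676 bases) held 12 and 8. In GENCODE vM21 all of these regions are annotated as untranslated exon sequence of their own gene, and no exon of another gene overlaps them. The Il1a region lies inside the gene body of Gm14023 and the main Il1rap region inside that of Gm20319, both annotated on the opposite strand, and without strand in the counting their reads could not be separated.

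**Figure D1:**
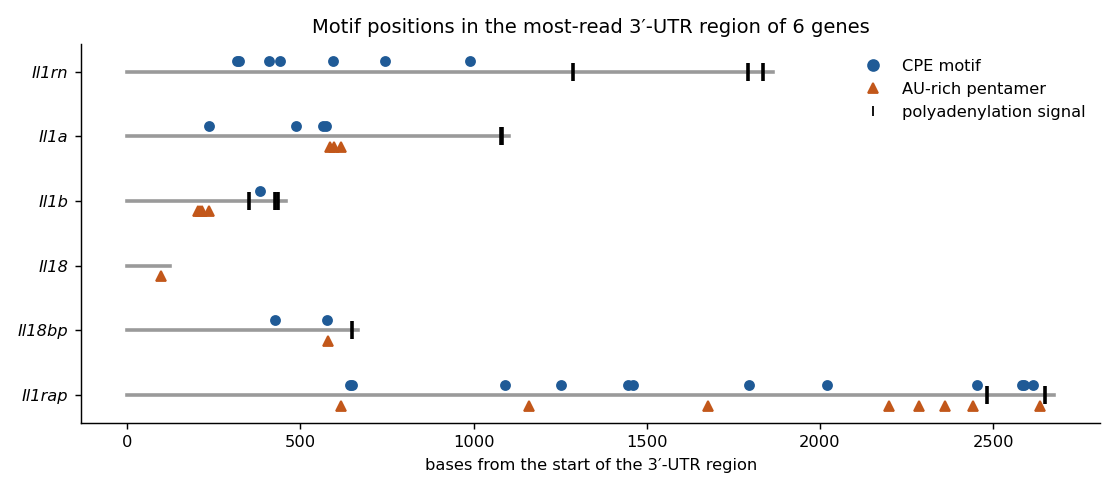
Positions of CPE motifs (circles), AU-rich pentamers (triangles) and polyadenylation signals (bars) along the most-read 3′-UTR region of 6 genes, in bases from its start; grey lines span the region. Il1rn has 7 circles and no triangle, Il1a has 3 triangles beside its last circles, and Il1b has 4 triangles before its only circle.

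Reads over 3′-UTRs with a symbol ranged from 929054 to 1897360 in the Inputs, were 1665914 and 2492300 in the untreated and LPS WT RIPs, and 467696 and 871482 in the KO RIPs. These sums are the scale of the levels below, given as RPM, reads per 1000000 reads over 3′-UTRs. Of all reads that the authors' RPKM values imply for a library, 3′-UTR reads made up 49.3% and 70.7% in the untreated and LPS WT RIPs, 27.5% and 32.1% in the KO RIPs, and 46.9% to 51.5% in the Inputs. Scaling to library totals instead therefore moves every WT over KO RIP ratio up by 0.84 without LPS and by 1.14 with LPS on the log2 scale. The macrophage markers Csf1r, Adgre1, Cd68, Itgam, Lyz2, Fcgr1 and Mertk together stood at 2357 to 3518 RPM in the Inputs. Only 2 of 4 listed T cell markers, 1 of 6 granulocyte markers (S100a8) and 1 of 5 mast cell markers (Kit) had a row. These were at 0 in all Inputs. The B cell, dendritic and stromal lists, with rows for 2 of 4, 3 of 3 and 2 of 4 genes, did not exceed 1.08 RPM in the Inputs. The endothelial list of Cdh5, Pecam1 and Kdr went from 7.53 to 51.1 RPM with LPS in the WT Inputs and from 7.54 to 86.5 in the KO Inputs, mostly through Kdr, which was called higher with LPS in both, while Cdh5 had at most 2 reads and Pecam1 was called lower in the WT than in the KO Input with LPS, with 12 and 24 reads. The part of this list in the members' values was not tested. The targeted gene Cpeb4 had 121 and 258 Input reads without and with LPS in WT and 69 and 79 in KO, and 1392 and 1920 RIP reads in WT and 120 and 320 in KO, so that reads over its 3′-UTR were fewer in the KO libraries but not absent. In bulk libraries such as these, fewer cells that express a gene and less RNA per cell cannot be told apart.

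The antagonist and both IL-1 agonists rose with LPS in both genotypes. A log2 ratio of 2 libraries, with 1 read added to each, was called where it was over 1 in size, its interval excluded 0 and the pair had at least 10 reads. Of all regions tested in the Inputs, 11.4% rose and 14.8% fell with LPS in WT, and 11.8% rose and 17.8% fell in KO. Il1a, Il1b and Il18 reached the minimum of 10 reads only through the LPS libraries, so the members are described one by one and no count of them is set against these shares.

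The antagonist was the only IL-1 ligand with substantial reads before stimulation. Il1rn had 109 reads in the untreated WT Input and 110 in KO, and 2845 and 2696 reads with LPS. Its level went from 117 to 1499 RPM in WT and from 83.0 to 1794 RPM in KO, a log2 change of 3.66 (3.39 to 3.94) and of 4.42 (4.15 to 4.70). The rise was thus larger in KO, by a difference of -0.76 for WT minus KO (-1.15 to -0.37), under the size that counts as a call. Of all regions tested, 1.67% were called lower on this measure. The untreated WT over KO Input ratio was 0.50 (0.12 to 0.88) and that with LPS -0.26 (-0.34 to -0.18), so the higher WT level before LPS and the lower WT level after it both enter that difference.

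The agonists were near 0 before LPS. Il1a had 0 and 1 reads in the untreated WT and KO Inputs and 750 and 206 with LPS, or 395 and 137 RPM. In WT this is at least 122-fold higher with LPS, counted against a floor of 3 reads in the untreated library, and in KO the log2 change was 6.51 (4.50 to 8.52). Il1b, the agonist that caspase-1 matures, had 3 reads in each untreated Input and 983 and 764 with LPS, or 518 and 509 RPM. Its log2 change was 6.91 (5.50 to 8.33) in WT and 7.40 (5.98 to 8.82) in KO. The difference between genotypes in these changes could not be resolved from such untreated counts, with intervals from -1.46 to 5.48 for Il1a and from -2.49 to 1.52 for Il1b.

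Il18bp, the IL-18 antagonist, rose as well, from 5 to 52 reads in WT and from 7 to 64 in KO, with log2 changes of 2.11 (0.89 to 3.33) and 2.84 (1.78 to 3.90). Il18 itself had 0 reads in both untreated Inputs and 6 and 12 with LPS, at least 3.53-fold higher with LPS in KO against the floor of 3 reads and called there, and under the minimum of 10 reads in WT. That call was lost with 0.1 reads added in place of 1, the interval then running from -2.24 to 15.7. The accessory chain Il1rap had 6 and 28 reads in WT and 15 and 30 in KO, and its log2 changes of 1.02 (-0.17 to 2.21) and 0.77 (-0.10 to 1.64) did not pass. Il1r1, the signalling receptor, had at most 4 reads in any library, and Il1rl1 at most 6. At these counts the 2 receptors were near the floor of 3 reads everywhere and no ratio between conditions is given for them.

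Levels of different genes can be set side by side only per length. In the WT Input with LPS the order per kb and per 1000000 3′-UTR reads was Il1b at 1129, Il1rn at 804, Il1a at 359, Il18bp at 41.1, Il18 at 25.7 and Il1rap at 5.51. The KO Input had Il1b at 1108, Il1rn at 963, Il1a at 125, Il18 at 64.9, Il18bp at 63.9 and Il1rap at 7.46. With these lengths, all neighbours from Il1b to Il1rap differed beyond counting error except Il18bp and Il18, whose ratio was 1.60 (0.73 to 3.52) in WT and 1.02 (0.56 to 1.84), taken as Il18 over Il18bp, in KO. The place of Il1rn depends on its length. Over the 1306-base region, which held nearly all of its reads, Il1rn stood at 1090 in WT, not separated from Il1b, and at 1318 in KO, above Il1b. Reads were counted by overlap with a region, so division by length raises short regions. The 3-base Il1rn region had 105 reads in the WT Input with LPS, or 18447 per kb on this scale. The size of this effect on the short regions of Il1b and Il18 was not tested, and the order carries this limit.

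**Figure D2:**
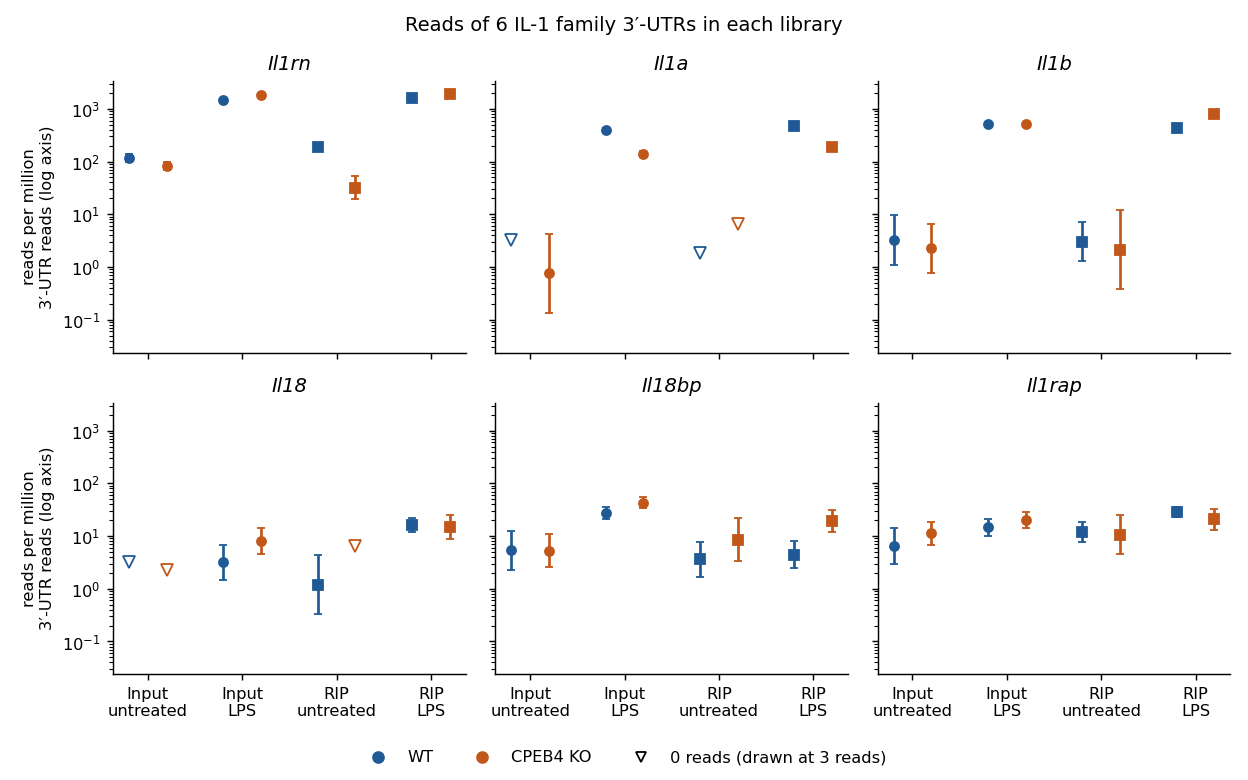
RPM over 3′-UTR reads (log axis) of the most-read region of 6 members in the 8 libraries, WT in blue and CPEB4 KO in orange, circles for Input and squares for RIP, bars giving 95% Wilson intervals for counting error; open triangles mark 0 reads, drawn at 3 reads. Il1rn alone is above 30 RPM before LPS, at 32.1 to 191 RPM, and Il1a differs between genotypes in both assays with LPS.

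The lysates of the LPS cultures differed most between genotypes in Il1a. Of the 6 members tested, Il1a was called higher in WT, with 750 reads against 206 and a log2 ratio of 1.52 (1.30 to 1.74), or 2.87-fold, and none was called lower. Over all 15730 regions 1.54% were called higher in WT and 1.52% lower, and 99.0% of the regions had a lower ratio than Il1a. Il1b did not show this, with a ratio of 0.03 (-0.11 to 0.16), and Il1rn and Il18bp were at -0.26 and at -0.63 (-1.15 to -0.11). The WT over KO ratio of Il1a thus exceeded that of Il1b by 1.496 (1.24 to 1.76) and that of Il1rn by 1.78 (1.55 to 2.02), differences that no scaling of the libraries can change. Without LPS 0 of 3 members tested were called in the Inputs, against 1.36% of all regions higher in WT and 1.88% lower. The reads rest on 1 WT and 1 KO culture, and whether the Il1a difference belongs to the genotype was not tested.

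In the RIPs of the LPS cultures, Il1a was again the member called higher in WT, against 6.47% of all 15893 regions, and Il18bp the member called lower, against 16.6%. Il1a had 1185 reads in the WT RIP and 162 in the KO RIP, a log2 ratio of 1.35 (1.11 to 1.58), close to the ratio of its Inputs. Il18bp had 11 and 17 reads, a log2 ratio of -2.10 (-3.15 to -1.05). Il1b had 1092 and 685 reads, which given the larger WT library is a ratio of -0.84 (-0.98 to -0.71), and Il1rn had 4014 and 1630, a ratio of -0.22 (-0.30 to -0.13). Il18 with 41 and 13 reads and Il1rap with 71 and 18 had ratios of 0.07 (-0.80 to 0.94) and 0.41 (-0.32 to 1.14). With library totals as the scale, Il1rn and Il1b turned to 0.92 and 0.30, Il1a went to 2.49 and Il18bp, at -0.96 (-2.01 to 0.09), was no longer called, so the direction for the antagonist and for Il1b depends on the scale. Of the 7 macrophage markers, 5 were called lower in the WT RIP with LPS and 4 without, beside 16.6% and 12.8% of all regions. With library totals 0 and 0 were called lower, beside 1.33% and 1.18% of all regions. On that scale 1, Itgam, was called higher with LPS, beside 46.9%. The part of the markers in the members' ratios was not tested.

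Subtracting the Input ratio from the RIP ratio gives what the antibody recovered beyond the difference in the lysates. With LPS this input-corrected value was 0.04 (-0.07 to 0.16) for Il1rn and -0.18 (-0.50 to 0.15) for Il1a. On the scale of 3′-UTR reads, the excess of Il1a in the WT RIP was thus not resolved from its excess in the WT Input. It was -0.87 (-1.06 to -0.68) for Il1b and -1.47 (-2.65 to -0.29) for Il18bp, and 0.84 (-0.19 to 1.87) for Il1rap and 1.30 (-0.29 to 2.89) for Il18. Only Il18bp was called, against 16.9% of 14292 regions lower and 7.64% higher, and the median over all regions tested was -0.15. With library totals the values of Il1rn, Il1a and Il1b became 1.24, 1.02 and 0.33, and those of Il18bp, Il1rap and Il18 became -0.27, 2.04 and 2.497, so that the call of Il18bp was lost while Il1rn, Il1a, Il1rap and Il18 passed. The call of Il18bp was also lost with TMM scaling, at -1.11 (-2.29 to 0.07), but kept with size factors, at -1.24 (-2.41 to -0.06). With TMM, Il1rap at 1.199 (0.17 to 2.23) and Il18 at 1.66 (0.07 to 3.25) passed. With size factors Il1rap passed, at 1.07 (0.04 to 2.11), and Il18 did not. Il1rn stood at 0.403 (0.29 to 0.52) with TMM and 0.28 (0.16 to 0.39) with size factors, under the size of a call. Il1b stayed below 0 with both, at -0.51 and -0.64. On this measure 57.4% of all regions lay below Il1rn, 49.3% below Il1a, 26.6% below Il1b and 12.4% below Il18bp, ranks that the scale leaves as they are.

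**Figure D3:**
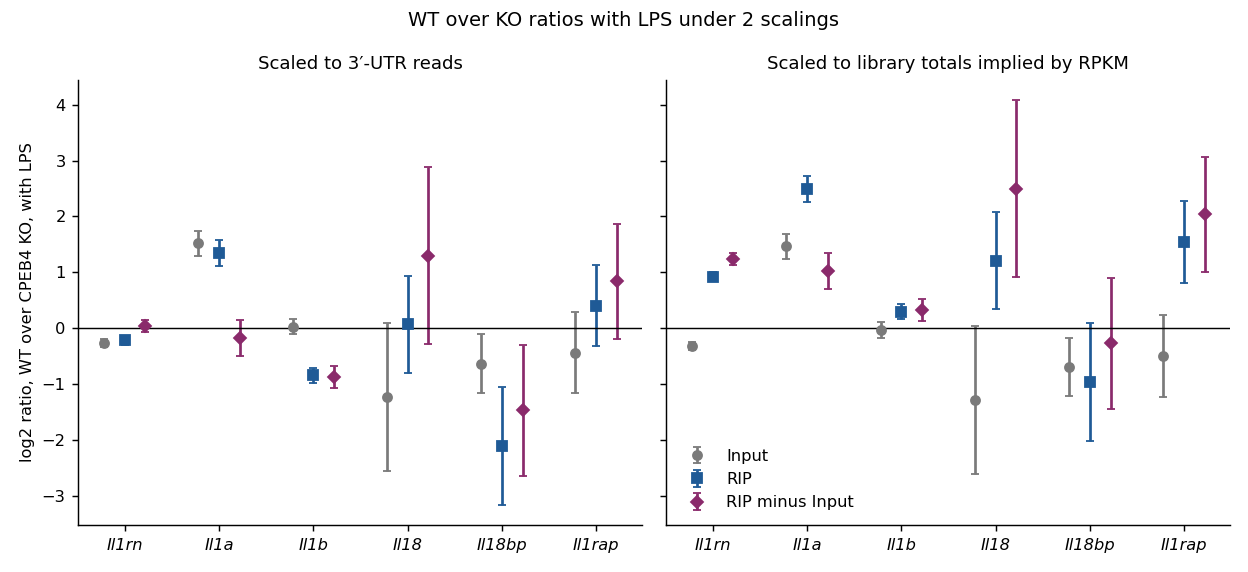
Log2 ratios of WT over CPEB4 KO with LPS for 6 members in Input (grey circles), RIP (blue squares) and RIP minus Input (purple diamonds), with 95% counting intervals, scaled to 3′-UTR reads (left) and to library totals implied by RPKM (right). The order of the members is the same in both panels while the purple values of Il1rn, Il1a and Il1b go from 0.04, -0.18 and -0.87 to 1.24, 1.02 and 0.33.

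Differences between 2 members within the same libraries are free of the scale, and on these Il1rn and Il1b differed in their WT over KO ratios. The WT over KO RIP ratio of Il1rn exceeded that of Il1b by 0.63 (0.47 to 0.79) with LPS, and the input-corrected ratio exceeded it by 0.91 (0.69 to 1.14), or 1.88-fold. In WT, the RIP over Input ratio of Il1rn was higher than that of Il1b by 0.34 (0.20 to 0.49), and in KO it was lower, with a difference of -0.57 (-0.74 to -0.40). Expressed per base, Il1rn had 0.71 times the reads of Il1b in the WT Input (0.66 to 0.77) and 0.91 times in the WT RIP (0.85 to 0.97), against 0.87 (0.80 to 0.94) in the KO Input and 0.59 (0.54 to 0.64) in the KO RIP. Over the 1306-base region these values were 0.97 (0.90 to 1.04) and 1.23 (1.15 to 1.32) in WT and 1.19 (1.10 to 1.29) and 0.80 (0.73 to 0.87) in KO, so which of the 2 genes had more reads per base depends on the length taken, and the change from Input to RIP does not. The antagonist thus gained on Il1b from Input to RIP in WT and lost on it in KO.

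Against Il1a there was no such gain. Il1rn had 2.24 times the reads of Il1a per base in the WT Input (2.07 to 2.43) and 2.001 times in the WT RIP (1.87 to 2.13), against 7.73 (6.68 to 8.86) in the KO Input and 5.94 (5.03 to 6.94) in the KO RIP, and Il1rn stayed above Il1a over the 1306-base region too. The RIP over Input ratio of Il1rn was below that of Il1a by -0.16 (-0.31 to -0.01) in WT and by -0.38 (-0.69 to -0.07) in KO. The input-corrected difference between Il1rn and Il1a was 0.22 (-0.13 to 0.56), which includes 0 and leaves room for up to 0.56. The agonists themselves differed, Il1a exceeding Il1b by 0.70 (0.32 to 1.07) on the input-corrected measure.

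Among the other members, Il1rap exceeded Il1b by 1.71 (0.66 to 2.76) and Il18 exceeded Il1b by 2.17 (0.57 to 3.77) on the input-corrected measure, and Il18bp was not resolved from Il1b, at -0.60 (-1.79 to 0.59). Il18 exceeded its binding protein Il18bp by 2.77 (0.79 to 4.74), and Il18bp was below Il1rn by -1.51 (-2.69 to -0.33). Il1rap was not resolved from Il1rn, with a difference of 0.80 (-0.24 to 1.83). The intervals of Il18, Il18bp and Il1rap are wide because their libraries held between 6 and 71 reads with LPS.

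**Figure D4:**
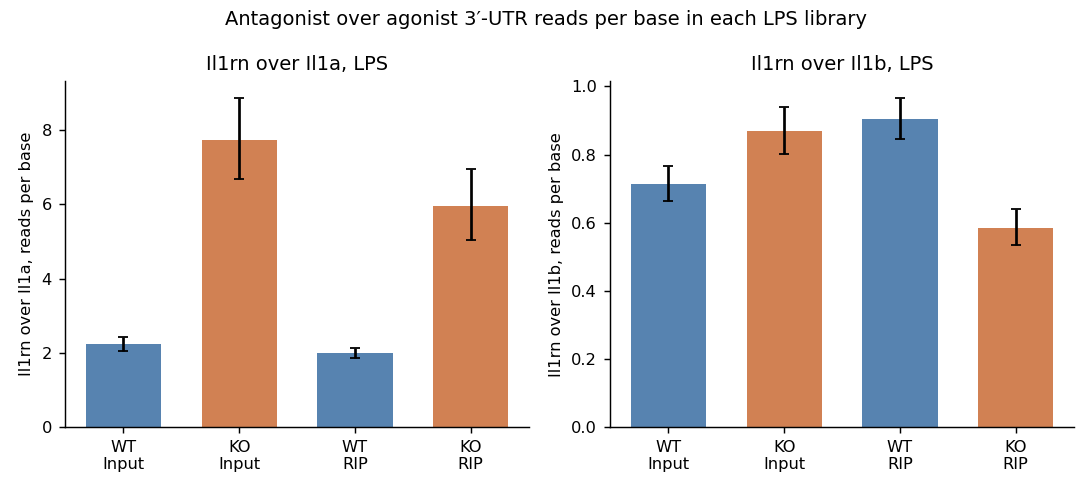
Reads per base of the longest Il1rn 3′-UTR region divided by those of Il1a (left) and of Il1b (right) in the 4 LPS libraries, WT in blue and CPEB4 KO in orange, with 95% counting intervals; bars start at 0. Over Il1a the ratio is 2.24 and 2.001 in WT and 7.73 and 5.94 in KO, and over Il1b it goes up from Input to RIP in WT (0.71 to 0.91) and down in KO (0.87 to 0.59).

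**Figure D5:**
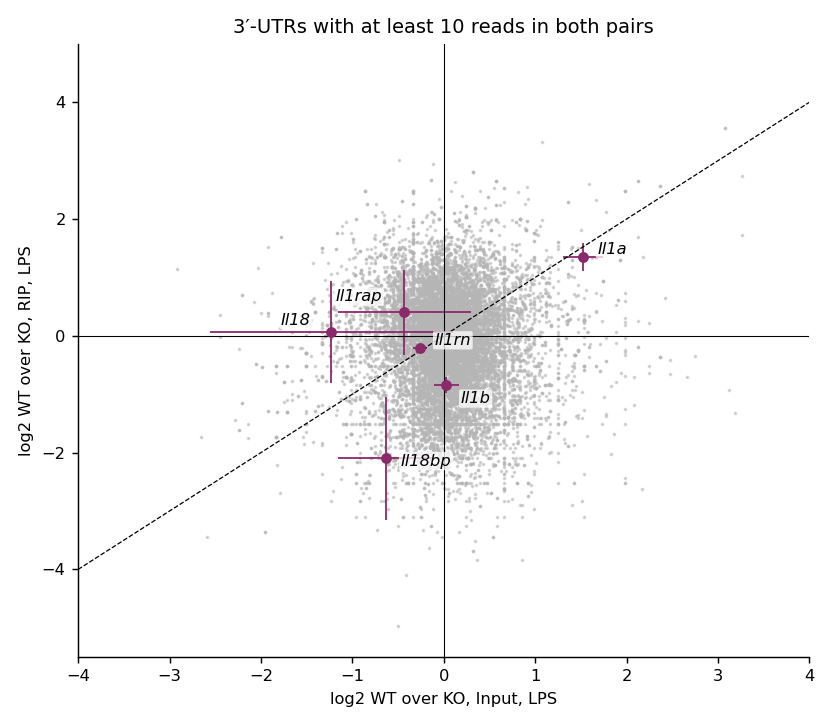
Log2 WT over CPEB4 KO ratio in RIP (vertical) against Input (horizontal) with LPS for all 3′-UTR regions with at least 10 reads in both pairs (grey) and 6 members (purple, 95% counting intervals); the dashed line marks equal ratios. On this scale of 3′-UTR reads, Il1a and Il1rn lie on the dashed line within error, at 1.52 and 1.35 and at -0.26 and -0.22, and Il1b and Il18bp lie below it.

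The ratio of RIP to Input was also taken within each genotype. With LPS, Il1rn stood at 0.10 (0.03 to 0.17) in WT and 0.06 (-0.03 to 0.15) in KO, and Il1a at 0.27 (0.13 to 0.40) and 0.44 (0.14 to 0.74). Il1b was at -0.24 (-0.37 to -0.12) in WT and at 0.63 (0.48 to 0.78) in KO, and this order depends on the scale, library totals giving 0.27 (0.15 to 0.40) in WT and -0.06 (-0.20 to 0.09) in KO. With library totals Il1rn went to 0.62 in WT and -0.62 in KO, and Il1a to 0.78 and -0.24. Il18 was called higher in the WT RIP than in its Input, with 41 and 6 reads and a ratio of 2.19 (1.04 to 3.35), and in KO it had 13 and 12 reads and a ratio of 0.89 (-0.20 to 1.98). Il18bp was called lower in the RIP of both genotypes, at -2.54 (-3.44 to -1.63) in WT with 11 against 52 reads and at -1.07 (-1.82 to -0.31) in KO with 17 against 64. Il1rap was at 0.92 (0.30 to 1.54) in WT and 0.08 (-0.74 to 0.90) in KO. Of 6 members tested in WT, 1 was called higher and 1 lower, against 20.9% and 26.3% of all regions, and of 6 in KO, 0 and 1, against 15.9% and 9.23%.

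Before LPS only Il1rn had enough reads for the RIP comparison to be informative. It had 319 reads in the WT RIP and 15 in the KO RIP, 191 and 32.1 RPM, and was called higher in WT at 2.49 (1.76 to 3.21), the only one of 3 members tested, against 5.56% of all 15182 regions. The input-corrected value was 1.99 (1.17 to 2.81), again a call, against 9.00% of all regions. Within genotypes, Il1rn stood at 0.70 (0.39 to 1.01) in RIP over Input in WT, below the size of a call where 20.6% of all regions were called higher, and at -1.29 (-2.05 to -0.53) in KO, a call that 7.32% of all regions shared. The KO value rests on the 15 reads of the shallowest library. Il1rap, with 20 and 5 RIP reads, had a WT over KO RIP ratio of -0.03 (-1.33 to 1.28), which turned positive under 5 of the other settings, and Il18bp, with 6 and 4, of -1.35 (-3.00 to 0.31). Il1b had 5 and 1 RIP reads, Il1a and Il1r1 none in WT, Il18 2 and 0, and Il1rl1 6 and 1, all below the minimum.

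The WT over KO RIP ratio of Il1rn was therefore lower with LPS than without. The difference of -2.71 (-3.43 to -1.98) was a call on the rule used here, against 2.22% of 13938 regions, and it was -2.41 with library totals. Regions of 18 of the 7473 genes tested had a lower value. With LPS the reads of Il1rn rose in both RIPs, from 319 to 4014 in WT and from 15 to 1630 in KO, log2 changes of 3.07 (2.90 to 3.23) and 5.77 (5.06 to 6.48). These are calls that 10.2% and 10.5% of all regions shared in WT and KO. Il1a and Il1b rose in the RIPs of both genotypes too, Il1a going from 0 to 1185 reads in WT and from 0 to 162 in KO and Il1b from 5 to 1092 and from 1 to 685. Il18 and Il1rap rose in the WT RIP, by 3.23 (1.54 to 4.92) and 1.196 (0.50 to 1.90). In the shallower KO RIPs they did not pass, Il18 with 0 and 13 reads at 2.91 (-0.02 to 5.84) and Il1rap at 0.77 (-0.56 to 2.09). Il18 reached the minimum of reads only through the LPS libraries. Il18bp did not pass in the RIPs of WT or KO, at 0.20 (-1.15 to 1.54) and 0.95 (-0.48 to 2.38). The WT and KO RIP comparisons before and after LPS share no library.

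The reads of Il1rn fell mostly on the proximal part of its 3′-UTR. The 3 shorter Il1rn regions share the start of the longest and are 1306, 177 and 3 bases long, and the first AATAAA lies in the last part of the 1306-base region. Reads of the longest region beyond the 1306-base region numbered 177 of 4014 in the WT RIP with LPS, 70 of 1630 in the KO RIP, 145 of 2845 in the WT Input and 109 of 2696 in the KO Input. These are 4.41% (3.82 to 5.09), 4.29% (3.41 to 5.39), 5.10% (4.35 to 5.97) and 4.04% (3.36 to 4.85), by Wilson intervals, on a stretch that makes up 29.9% of the length. With LPS the intervals overlapped between RIP and Input and between genotypes. Without LPS the WT RIP had 2 of 319 reads there, 0.63% (0.17 to 2.26), below its share with LPS, the WT and KO Inputs had 3 of 109 and 1 of 110, with intervals that overlap those with LPS, and the KO RIP had 0 of 15, which allows up to 20.4%. Since all 7 CPE motifs lie in the proximal part, both lengths of the 3′-UTR hold them. The other regions of Il1rap had at most 5 reads in any library. Of the regions of Il1rl1, the long ones at chr1:40462170-40465415 and its near copy had at most 6 reads, and the one at chr1:40446705-40448148 had 1 read in all 8 libraries.

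The wider pathway was followed through a list of genes that act with these cytokines. Of 37 listed genes for receptors, signalling, and maturation and release of IL-1 family cytokines, 32 had a row. The 7 further receptors and ligands with a row, Il18r1, Il18rap, Sigirr, Il1rl2, Il1rapl1, Il1f6 and Il1f9, had at most 3 reads in any library. In the Inputs, 9 of 24 genes with enough reads in WT rose with LPS and 1 fell, against 11.4% and 14.8% of all regions, and 6 of 23 rose and 3 fell in KO, against 11.8% and 17.8%. Their medians were 0.19 and -0.04, beside -0.07 and -0.18 over all regions. Those that rose in both were the adaptor Myd88, the kinases Irak2 and Irak3, the ubiquitin ligase Peli1, Casp8 and the inflammasome sensor Nlrp3, and Peli2 fell in both. Nlrp3 had 14 and 282 reads in WT and 25 and 148 in KO, and Irak3, a negative regulator of the pathway, 20 and 326 in WT and 20 and 209 in KO. Gsdmd, with 2 and 32 reads in WT, and Pycard, with 4 and 39, rose there too, but reached the minimum only through the LPS library. The WT count is therefore not weighed against the shares. All these names were chosen after their values were seen.

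In the RIPs, 2 of 22 pathway genes tested without LPS were called higher in WT and 2 lower, against 5.56% and 12.8% of all regions, and with LPS 0 of 25 were higher and 3 lower, against 6.47% and 16.6%. With library totals, 10 were higher and 0 lower without LPS, against 29.5% and 1.18% of all regions on that scale. With LPS, 13 were higher and 1, Gsdmd, lower, against 46.9% and 1.33%. The direction of these counts thus depends on the scale. Peli1 had 204 and 22 reads without LPS, a ratio of 1.32 (0.70 to 1.95), and 1036 and 181 with LPS, a ratio of 0.99 (0.77 to 1.22). Myd88 had 174 and 22 reads, 1.09 (0.47 to 1.72), and 553 and 108, 0.83 (0.53 to 1.13). The kinase Irak4 was called lower without LPS, with 34 and 27 reads and a ratio of -1.51 (-2.23 to -0.79), but -0.35 (-1.11 to 0.41) with LPS. The calpain Capn2, of the protease family that cleaves pro-IL-1α, was called lower with LPS, with 65 and 52 reads and a ratio of -1.199 (-1.72 to -0.68), which library totals moved to -0.06. The remaining calls, named after their values were seen, were lower in WT on few reads, Tab1 with 23 and 13 without LPS and 14 and 11 with LPS, and Gsdmd with 8 and 17 with LPS. Of the members and pathway genes tested, Il1rn had the highest WT over KO RIP ratio without LPS and Il1a with LPS.

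The genes whose log2(RPM + 1) over the 8 libraries followed Il1rn most closely, of 5463 genes with a region of at least 50 reads in 1 library, were Gsr, Mt2, Txnrd1 and Dusp2, with Pearson correlations of 0.99. Gsr and Txnrd1 encode glutathione and thioredoxin reductases, Mt2 a metallothionein and Dusp2 a dual-specificity phosphatase. Gsr had 161 and 19 reads in the untreated WT and KO RIPs and 1260 and 378 with LPS. Txnrd1 had 293 and 48 reads and 1411 and 428. Among the members, Il1b came 76th at 0.96, Il1a 167th at 0.94, Il1rap 630th at 0.79 and Il18bp 1057th at 0.59. The 8 points share libraries and depth and are dominated by the change with LPS, and the correlation is given as a description.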

How the data were processed

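The deposited tables hold a read count for each 3′-UTR region and library. According to the methods, the authors aligned reads to mm10 with Bowtie2 2.2.2 in local mode, removed duplicates with sambamba, and counted overlaps with Ensembl 3′-UTRs, whether by strand not being given in the sources used here. The authors' RPKM divides the count by length and a library total, which was recovered from it. Columns of the authors' own RIP over Input fold changes, p-values and MACS 1.4.2 peak scores were not used. The 8 count columns were identical in all 4 tables, and 495 of 31117 rows, with 0.90% to 1.04% of the reads, have no symbol and were left out of the column sums. Counts were scaled to these sums, 1 read was added to each library, and the log2 ratio was given with a 95% normal interval from the reads. With 1 library per group no p-value is given. Il1rn-like genes, members and lists were chosen with earlier results of these data known. Pathway genes were named where called in a RIP comparison on at least 50 reads, the largest ratio first, and other named genes are stated as chosen later. Of the genes most like Il1rn over the libraries, 1 that the rule names is not reported here. Pairs of libraries with 3 reads or fewer in each got no ratio. The ratio test was checked on simulated counts that held counting error only, which cannot show how it behaves under spread between cultures. Alternatives were TMM (edgeR 4.0.16), size factors (DESeq2 1.42.0), library totals, 0.1 reads added, other read minimums, 1 row per distinct coordinates, the methods' chi-square criteria, an edgeR exact test with a preset coefficient of variation of 0.4, and other regions of a gene. The 1306-base Il1rn region for values per base, and library totals for list counts, were added after seeing the data. Motifs were counted with Python 3.11.15 on GRCm38.p6, whose 21 chromosomes hold all regions. Reads are not independent molecules, so intervals and floors cover counting error only.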

Additional observations from a re-analysis of the deposited data

Results flagged for a closer look

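The WT over KO RIP ratio of Il1rn differed between LPS and untreated cultures by -2.71 on the log2 scale, with a 95% counting interval of -3.43 to -1.98, and it stood out because this interval excludes 0. The untreated KO RIP holds 15 Il1rn reads and is the shallowest library, and its part in the difference was not tested. The change of Il1rn with LPS in the Inputs also differed between genotypes, by -0.76 (-1.15 to -0.37) for WT minus KO, with 109 and 110 reads untreated and 2845 and 2696 with LPS. Both differences rest on 1 library per group, and the spread between cultures is not known.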

How the results depend on the processing

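No paired analysis was possible because the tables sum the lanes of a library and hold 1 library for each genotype, treatment and assay, and for the same reason no library could be left out. Of the first 186 alternative values for the members, 154 kept their direction and their call, 7 lost a call, 9 gained one and 16 changed sign. The calls over all regions moved with the scale. Without LPS, 844 regions were higher and 1942 lower in WT in the RIPs, a share of 30.3% higher among the calls, against 1467 and 1153 (56.0%) with TMM and 4476 and 179 (96.2%) with library totals, and 40.5% with size factors. With LPS the counts were 1028 and 2631 (28.1%), against 2311 and 1588 (59.3%) with TMM, 7447 and 211 (97.2%) with library totals and 1572 higher (42.9%) with size factors. A minimum of 50 reads left 602 and 938 lower in WT without and with LPS. The edgeR exact test with the preset coefficient called 0 regions in each direction in both comparisons, and with it the ratio of Il1rn without LPS, 2.57, and of Il1a with LPS, 1.35, were not called. TMM moved the median of all regions by 0.23 without LPS and 0.34 with LPS, and library totals by 0.84 and 1.14.

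With LPS, the Il1rn RIP ratio of -0.22 became 0.12 with TMM, 0.92 with library totals and 0.049 in the 3-base region, and its Input ratio of -0.26 became 0.11 in that region. The Il1b RIP ratio of -0.84 became 0.30 with library totals and was called by the methods' criteria at -0.84. Its Input ratio of 0.03 became -0.046 with size factors and -0.031 with library totals. The input-corrected values with LPS became 0.18 with TMM, 0.059 with size factors and 1.02 with library totals for Il1a, 0.33 for Il1b and 1.24 for Il1rn with library totals. Without LPS, the Il1rap RIP ratio of -0.03 became 0.21 with TMM, 0.081 with size factors, 0.82 with library totals, 0.15 with 0.1 reads added and 0.17 in the edgeR test. The Il1rn minus Il1b and Il1rn minus Il1a differences kept their sign and their side of 0 with 0.1 reads added and in all other regions of Il1rn. Added after seeing the data, the 1306-base region turned Il1rn over Il1b per base to 1.23 in the WT RIP and 1.19 in the KO Input with LPS. Library totals, also added then, turned the pathway calls in the RIPs from 2 higher and 2 lower to 10 and 0 without LPS. With LPS these calls went from 0 and 3 to 13 and 1. Of all regions, library totals called 29.5% higher without LPS and 46.9% with LPS. The Il18 call in the KO Input was lost with 0.1 reads added (6.74), and the input-corrected Il18bp call with TMM (-1.11). Calls were gained on the input-corrected measure with LPS by Il1rap with TMM (1.199) and size factors (1.07), and by Il18 with TMM (1.66). Depth limits the receptors and Il18, which had at most 71 reads in a library.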
